A study of Mus musculus with 38 samples.

Results

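Dermal CD11b+ dendritic cells (DC) of mouse ear skin were compared between 3 days after dinitrofluorobenzene (DNFB) and steady state. The members were chosen by their titles, which gave 6 of the 38 arrays of the series. Of the 6, 3 came from DNFB-treated ears and 3 from untreated ears. Earlier results of these data were known when the members and the gene lists were chosen. All animals were wild-type female C57BL/6 mice aged 6 weeks. The treated ears had received 10 µl of 0.5% DNFB, a contact sensitiser, in acetone and olive oil. The control ears were untreated, so the vehicle is part of what was compared. Both groups were sorted as live CD11b+ cells that were negative for CD24, Ly6C and CD64 and positive for MHC class II. The labels call the pools of mice behind the replicates independent. Cells numbered 5000 to 10000 per sort and gave 5 to 20 ng of RNA, which was amplified before hybridisation to Affymetrix Gene 1.0 ST arrays.

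The same DNFB contrast was taken in 3 further populations, which share no array with the dermal DC. Dermal P2 cells (CD64+ Ly6Chigh CCR2+ MHC II+, 3 DNFB arrays and 3 steady-state arrays) and dermal P1 cells (CD64low Ly6Chigh CCR2+ MHC II-, 2 DNFB arrays and 3 steady-state arrays) belong to the monocyte lineage of the skin. Lymph node CD11b+ migratory DC (migDC, CD11c+ MHC II high CD24- CD64-, 3 DNFB arrays and 3 steady-state arrays) have arrived from the skin.

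Dermal CD11b+ DC take up antigen in the skin, mature, and travel through lymph vessels to the draining node, guided by the chemokine receptor CCR7. There they present peptides on MHC class II molecules and prime CD4 T cells. Contact sensitisers such as DNFB modify proteins of the skin and inflame it, and DC carry the modified proteins to the node. Type I interferons, which many cells release in inflammation, switch on antiviral genes and change how DC present antigen. Macrophages and monocyte-derived cells share the dermis with DC and carry many of the same surface proteins.

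Levels are log2 intensities, so a difference of 1 is a 2-fold change, and differences are means of the DNFB arrays minus means of the steady-state arrays with their standard error (SE). A gene is said to have risen or fallen only where limma's moderated test, fitted over all 38 arrays, gave an adjusted p under 0.05 (Benjamini-Hochberg over 19937 genes). A level under 4.02, the 40th percentile of all values, is called low signal. The 6 arrays had medians between 4.45 and 4.61. Pairs of arrays of the same group correlated at 0.975 to 0.989 across genes, and pairs of different groups at 0.963 to 0.968. The series was hybridised in 3 chip batches, and the labels do not say which array was in which, so batch and treatment cannot be told apart. In such sorted bulk samples, fewer cells of a type and less RNA per cell cannot be told apart either.

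Markers of the sort were measured first. Itgam, which encodes CD11b, had levels of 9.88, 9.78 and 10.33 in DNFB DC, against 9.55, 9.67 and 9.33 in steady-state DC (0.48, SE 0.22, adjusted p = 0.31). H2-Ab1, an MHC class II chain, averaged 12.18 ± 0.05 in DNFB DC and 12.02 ± 0.08 in steady-state DC (SD, n = 3 each). The DC genes Flt3 and Zbtb46 averaged 9.35 ± 0.08 and 6.39 ± 0.18 in DNFB DC, and 8.73 ± 0.24 and 6.25 ± 0.13 in steady-state DC. In both groups Flt3 and Zbtb46 lay above their levels in P2 and P1 cells, where Flt3 averaged 6.06 to 7.66 and Zbtb46 5.16 to 5.51 over the 4 groups. Mertk, which marks tissue macrophages, had low signal at 3.71 ± 0.17 in DNFB DC and 3.84 ± 0.34 in steady-state DC. Mertk does not stand for the other macrophage genes. The mean of the macrophage core list (22 measured genes) was 7.63 to 7.94 on the steady-state arrays. On the DNFB arrays it was 6.98 to 7.37. Fcgr1, which encodes the CD64 that the sort excluded, differed between the groups. Its RNA had levels of 7.95, 7.71 and 8.26 in DNFB DC, against 5.64, 5.98 and 6.20 in steady-state DC, so the groups did not overlap. Fcgr1 rose 4.10-fold (2.04, SE 0.34, adjusted p = 0.00025), and the level after DNFB was close to the 7.99 of P2 cells at steady state. Cd24a, which encodes the excluded CD24, had levels of 9.95, 9.52 and 9.98 in DNFB DC and 9.01, 9.16 and 8.31 in steady-state DC, and the difference did not pass (0.99, SE 0.49, adjusted p = 0.36).

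After DNFB, 830 of 19937 genes changed in dermal DC (4.16% of genes tested), of which 420 rose (2.11%) and 410 fell (2.06%). The counts of gene list and family members given below are to be read beside these shares. The median difference over all genes was 0.02. Of the genes that changed, 230 rose and 260 fell at least 2-fold, and 65 rose and 61 fell at least 4-fold. In 818 of the 830 the 3 DNFB arrays did not overlap with the 3 steady-state arrays, which held for 4324 of all genes (21.7%, of which 12.1% were higher and 9.54% lower on all 3 DNFB arrays). The count was 506 without DNFB replicate 1, and lay between 573 and 660 when 1 of the other 5 arrays was left out.

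The gene with the largest rise was I730030J21Rik, a transcript without an assigned function here. Its levels were 10.11, 8.56 and 9.87 in DNFB DC, against 4.57, 3.75 and 4.28 in steady-state DC (39.7-fold, 5.31, SE 0.49, adjusted p = 2.2e-08). Ifitm1, an interferon-induced membrane protein that restricts virus entry, had 12.33, 12.14 and 12.28 in DNFB DC and 7.06, 7.18 and 6.86 in steady-state DC (37.1-fold, 5.21, SE 0.41). Both genes were high on all 3 DNFB arrays and tightly grouped at steady state. Plac8, a gene of high level in blood monocytes, had 10.16, 10.25 and 10.44 in DNFB DC, against 3.87, 6.98 and 5.67 in steady-state DC (27.4-fold, 4.78, SE 0.62). Tnfsf4, which encodes the T cell costimulator OX40 ligand, had 10.00, 9.57 and 9.45 in DNFB DC, against 4.63, 6.48 and 4.14 in steady-state DC (24.1-fold, 4.59, SE 0.42). Cd72, an inhibitory receptor best known from B cells, had 9.43, 9.10 and 9.31 in DNFB DC, against 5.33, 4.03 and 4.74 in steady-state DC (23.9-fold, 4.58, SE 0.41). Steady-state replicate 2 was the highest of its group for Plac8 and Tnfsf4, and it was so for Ifitm6 (8.04, against 5.09 and 5.36 in the other steady-state arrays) and Gm9733 (6.77, against 3.99 and 4.68). None of these calls was lost in any fit without 1 array. The fit without steady-state replicate 2 is no check on that array, since leaving out the highest control widens the rise.

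The rest of the 15 largest rises were of mixed kinds. Ffar2, a receptor for short-chain fatty acids, rose 16.5-fold (4.05, SE 0.19). Il21r, the receptor for the T cell cytokine interleukin-21, rose 12.4-fold (3.64, SE 0.31). Kit, the receptor for stem cell factor, had 7.82, 7.20 and 7.61 in DNFB DC, against 4.04, 3.98 and 4.41 in steady-state DC, where it was near low signal (10.6-fold, 3.40, SE 0.23). Cyp7b1, an oxysterol hydroxylase that takes part in making ligands of the migration receptor GPR183, rose 14.7-fold (3.88, SE 0.29), with low signal at steady state (3.57 ± 0.09). Stat4, a transcription factor used by the interleukin-12 and type I interferon receptors, rose 13.1-fold (3.72, SE 0.36). Cst7, which encodes cystatin F, an inhibitor of lysosomal proteases, rose 10.6-fold (3.41, SE 0.54). The remaining members of the 15 were Ifitm6, Gm9733, Ifit3 and Oasl2.

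The largest fall was that of Cytl1, a secreted protein known from cartilage, which had 5.35, 4.43 and 5.23 in DNFB DC, against 9.51, 8.08 and 8.70 in steady-state DC (-3.76, SE 0.63, adjusted p = 0.00027). Cd163, the macrophage scavenger receptor for haemoglobin bound to haptoglobin, had 6.08, 6.97 and 7.18 in DNFB DC, against 10.42, 9.90 and 10.11 in steady-state DC, a 10.6-fold fall (-3.40, SE 0.34). Ephx1, an epoxide hydrolase that detoxifies reactive epoxides, fell 10.4-fold (-3.38, SE 0.50). Flt1, a receptor for VEGF, fell 8.77-fold (-3.13, SE 0.30), and its 3 steady-state levels lay within 8.63 to 8.70. Ecm1, an extracellular matrix protein, fell to 8.63, 8.54 and 8.69 in DNFB DC, against 11.56, 11.39 and 11.46 in steady-state DC (-2.85, SE 0.29). The tetraspanin gene Cd81 fell 6.88-fold (-2.78, SE 0.46). Qpct, which encodes glutaminyl cyclase, fell 7.07-fold (-2.82, SE 0.42), and Col8a1, a chain of collagen VIII, 6.89-fold (-2.79, SE 0.37). The other 7 of the 15 were Spink2, Hepacam2, Slc27a3, Gpr141b, Gbgt1, Gm11545 and Clca3a2, with falls between -3.27 and -2.80.

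**Figure D1:**
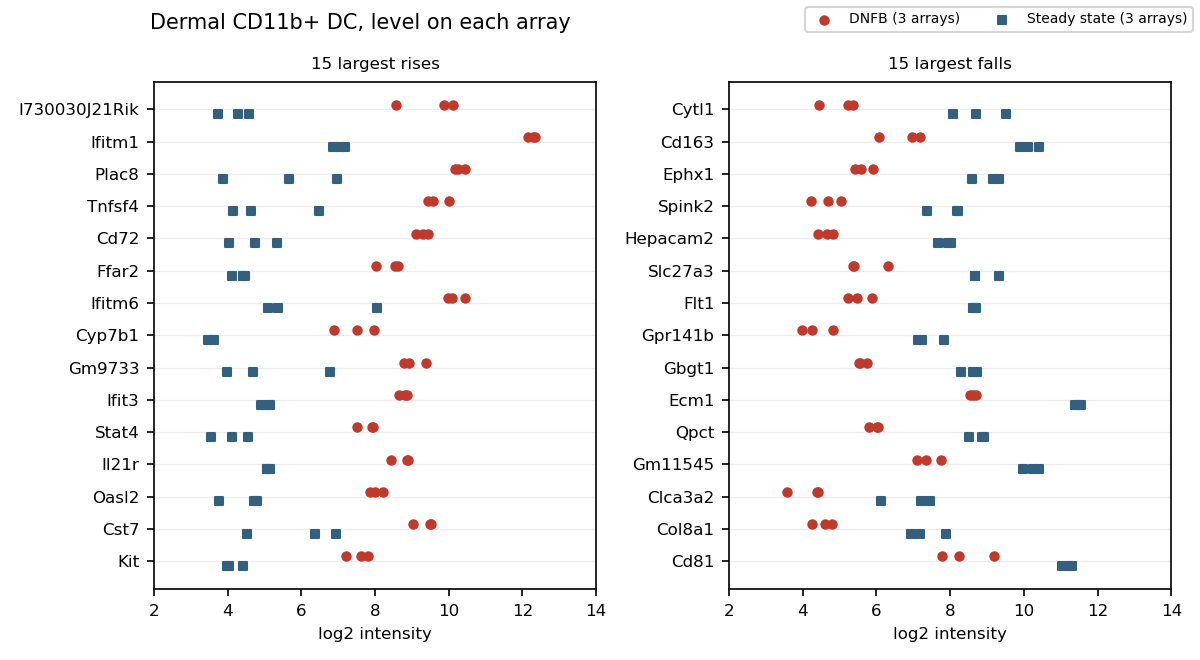
Log2 intensity on each array for the 15 genes with the largest rises (left panel) and the 15 with the largest falls (right panel); circles are the 3 DNFB arrays and squares the 3 steady-state arrays of dermal CD11b+ DC. The genes were picked among called genes whose circles and squares do not overlap, so their separation follows from the choice. The steady-state squares of Plac8, Ifitm6 and Gm9733 are spread widest among the rises.

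Genes induced by type I interferon rose together. Of 28 measured members, 17 rose, 0 fell and 11 did not pass, and the list's median difference was 1.43, against 0.02 over all genes. Ifit3, which blocks translation of viral RNA together with its relatives, had 8.86, 8.65 and 8.81 in DNFB DC, against 4.90, 5.13 and 5.14 in steady-state DC (13.1-fold, 3.72, SE 0.44, adjusted p = 2e-06). Oasl2, a relative of the oligoadenylate synthetases, had 8.01, 7.87 and 8.22 in DNFB DC, against 4.81, 3.76 and 4.72 in steady-state DC (12.1-fold, 3.60, SE 0.30). Irf7, the transcription factor that amplifies interferon production, had 7.92, 7.85 and 8.16 in DNFB DC and 4.11, 5.28 and 5.14 in steady-state DC (8.77-fold, 3.13, SE 0.43). All 3 were separated between the groups by more than 2 log2 units. The oligoadenylate synthetases Oas1a, Oas2 and Oas3, which sense double-stranded RNA, rose by 2.66, 2.42 and 1.83. The RNA sensors Dhx58 and Ddx58 rose by 2.45 and 1.62, and the antiviral genes Rsad2 and Rtp4 by 1.51 and 3.01.

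Members that did not pass lay mostly above 0 as well. Ifit1 had 6.14, 6.06 and 7.35 in DNFB DC and 4.02, 5.87 and 4.17 in steady-state DC (1.83, SE 0.56, adjusted p = 0.06), and Oasl1 was the one member with a difference below 0 (-0.15). Among the 17, the calls of Mx1 and Irf9 were each lost in 4 of the 6 fits without 1 array, those being the fits without DNFB replicate 1 or 3, steady-state replicate 2 and, for Mx1, steady-state replicate 1 or, for Irf9, steady-state replicate 3. Their differences in those fits lay between 1.06 and 1.16 for Mx1 and between 0.80 and 0.93 for Irf9. Between 15 and 18 members rose in the 6 fits. Gene families named for interferon induction moved in the same direction, and these were picked after their values were seen. In the Ifitm family 4 of 7 measured genes rose (Ifitm1, Ifitm6, Ifitm3 and Ifitm2), and of 9 Ifi200 genes, which encode nuclear DNA-binding proteins, 4 rose (Ifi213, Ifi205, Ifi209 and Ifi203) and 0 fell. Ifi205 did not pass without steady-state replicate 3 (2.25), nor Ifi203 without steady-state replicate 2 (1.18). Of 18 measured genes induced mainly by interferon gamma 0 rose and 0 fell, in limma's test, with a median of 0.17. Over all genes 4.16% were called, and 2789 had an unadjusted p under 0.05, so a count of 0 in 18 is near the share of all genes. A further 9 listed genes were not measured, and 3 of the 18 had low signal in both groups. With array weights 2 rose. Cxcl9, a chemokine that interferon gamma induces, had 7.61, 7.18 and 7.24 in DNFB DC, against 8.77, 8.77 and 8.90 in steady-state DC, without passing (-1.47, SE 0.55, adjusted p = 0.16).

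**Figure D2:**
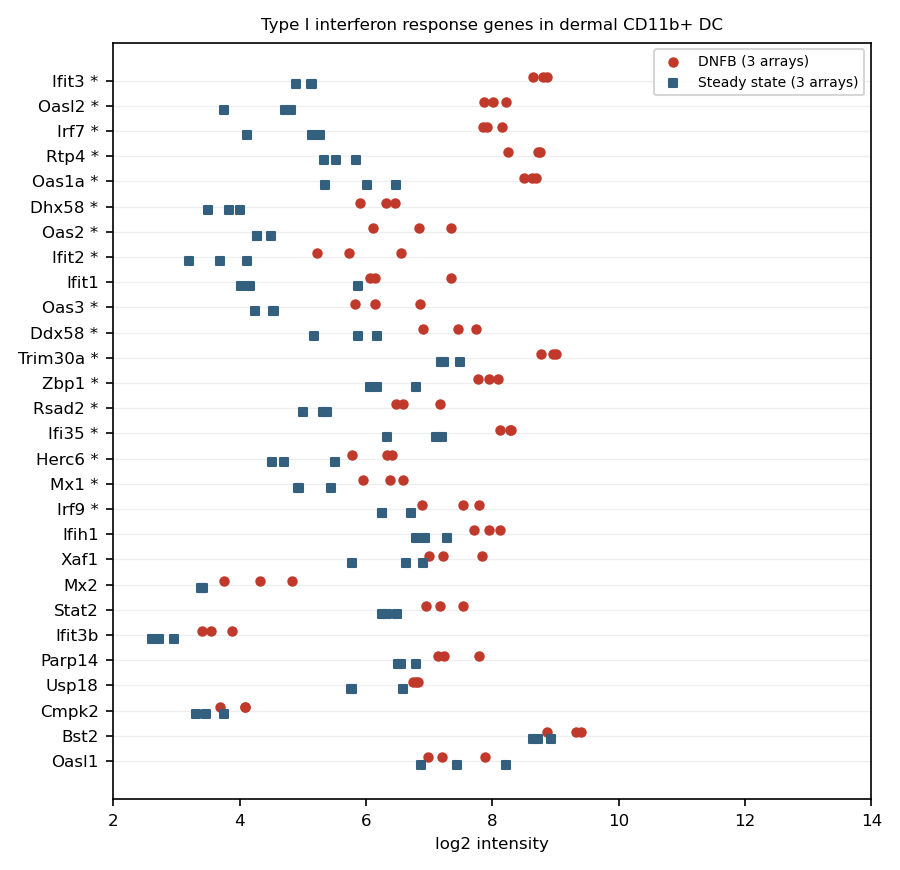
Log2 intensity on each array for the 28 measured members of the type I interferon response list, ordered by difference; circles are DNFB arrays, squares steady-state arrays, and an asterisk marks the 17 genes that rose. Circles lie to the right of squares in most rows, and Oasl1 at the bottom has mixed circles and squares.

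The promoters of these genes were searched for the core of the interferon-stimulated response element (GAAA, any 2 bases, then GAAA), which interferon-activated transcription factors bind, on both strands of a window of 250 bases before to 50 after the annotated start (RefSeq, GRCm38.p6). Of the interferon genes that rose, 12 had a promoter in the table, and 6 of them held the motif. Of those that did not pass, 5 of 8 held it (62.5%). Over all genes the share was 607 of 15613 (3.89%), over all genes that rose 29 of 333 (8.71%), and over those that fell 13 of 333 (3.90%). Among genes that rose and are not on the interferon list, 23 of 321 (7.17%) held it. Stretches of 60 bases before the start are given for 5 of the interferon genes that rose, since they show where the motif sits, and are written 5′ to 3′ on the strand of the gene, with the motif or its reverse complement in capitals.
Oas1a (chr5:120907526-120907585, minus strand): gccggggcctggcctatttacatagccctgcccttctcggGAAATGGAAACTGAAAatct
Ifit3 (chr19:34583382-34583441, plus strand): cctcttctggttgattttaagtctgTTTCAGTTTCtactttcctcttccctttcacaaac
Trim30a (chr7:104465195-104465254, minus strand): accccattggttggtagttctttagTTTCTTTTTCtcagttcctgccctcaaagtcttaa
Oas3 (chr5:120777700-120777759, minus strand): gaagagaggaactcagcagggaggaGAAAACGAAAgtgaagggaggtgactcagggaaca
Rsad2 (chr12:26456538-26456597, minus strand): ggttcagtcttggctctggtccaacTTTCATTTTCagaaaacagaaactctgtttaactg
The window of Oas1a holds 2 overlapping matches, directly before the start. The other 4 hold 1 match each. A match is a description of the letters only, and binding was not measured.

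Antigen presentation genes rose in part. The abundant MHC class II chains H2-Aa and H2-Ab1 and the invariant chain Cd74 were near the top of the intensity scale in both groups and did not pass. Cd74 averaged 12.68 ± 0.04 in DNFB DC and 12.60 ± 0.02 in steady-state DC. H2-Oa, a chain of the H2-O dimer that restrains peptide loading by H2-M, had 9.55, 9.30 and 9.91 in DNFB DC, against 7.00, 6.96 and 6.34 in steady-state DC (7.05-fold, 2.82, SE 0.52, adjusted p = 0.0009). Ifi30, a lysosomal thiol reductase, rose by 0.72. The other chain of H2-O, H2-Ob, rose by 1.07, and H2-Eb2 by 1.38. H2-Ob did not pass without DNFB replicate 1 or 3 or steady-state replicate 1 or 2, nor H2-Eb2 without DNFB replicate 1 or 2 or steady-state replicate 2 or 3. Differences in those fits lay between 0.82 and 1.13 for H2-Ob and between 1.17 and 1.36 for H2-Eb2. In all, 4 of 12 class II genes rose and 0 fell, and 2 rose without DNFB replicate 1 or steady-state replicate 2.

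For MHC class I, 5 of 13 genes rose and 0 fell, against 2.11% and 2.06% of all genes. In 11 of the 13 the DNFB arrays were all higher, which held for 12.1% of all genes. The immunoproteasome subunit gene Psmb9 had 10.51, 10.91 and 10.75 in DNFB DC, against 9.28, 9.58 and 9.42 in steady-state DC (2.45-fold, 1.30, SE 0.16). Psmb8, a second subunit, had 9.81, 9.76 and 9.80 in DNFB DC and 9.13, 9.13 and 9.10 in steady-state DC, a small difference with little spread (0.68, SE 0.13, adjusted p = 0.0017). The proteasome activators Psme1 and Psme2 rose by 0.73 and 0.82. Tap1, which pumps peptides into the endoplasmic reticulum, rose by 0.85, and did not pass without DNFB replicate 1 or 3 or steady-state replicate 2 or 3 (0.75 to 0.81).

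Of 25 genes of DC maturation and migration 6 rose and 0 fell, and the median was 0.24. Fscn1, the actin-bundling protein fascin of mature DC, had 9.56, 10.25 and 8.32 in DNFB DC, against 6.43, 7.10 and 7.26 in steady-state DC (5.46-fold, 2.45, SE 0.42, adjusted p = 0.00038). The DNFB arrays spread widely for it but did not overlap with the controls. Ccr7 was high in both groups, with 11.33, 11.12 and 10.95 in DNFB DC and 9.85, 10.53 and 9.87 in steady-state DC (2.07-fold, 1.05, SE 0.27, adjusted p = 0.019). Ccr7 did not pass without DNFB replicate 1 or 2 or steady-state replicate 1 or 3 (0.93 to 1.06). Stat4, Cst7, Serpinb6b and Cd200 were the other 4 that rose. Cd200 (1.40) did not pass without DNFB replicate 1 or 2 or steady-state replicate 1 or 3 (1.12 to 1.36). Cd83 and the chemokine gene Ccl22, both of mature DC, did not pass (-0.54, SE 0.25, and 0.16, SE 0.35).

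Among 17 costimulators and checkpoint ligands, Tnfsf4 and Cd274 rose and 0 fell. Cd274, which encodes the T cell inhibitor PD-L1, averaged 9.06 ± 0.05 in DNFB DC (SD, n = 3), against 8.35, 7.22 and 7.28 in steady-state DC (2.73-fold, 1.45, SE 0.27). The costimulators of naive T cells Cd80, Cd86 and Cd40 did not pass (0.60, 0.15 and 0.16, SE 0.28, 0.26 and 0.23). Cd86 averaged 10.29 ± 0.26 in DNFB DC and 10.15 ± 0.16 in steady-state DC, with overlapping arrays.

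Genes that define the DC lineage moved in both directions. In the conventional DC core list 6 of 20 rose (Kit, Dpp4, Kmo, Btla, H2-Ob and Runx3), Adam19 fell, and the median was 0.69. Without the members that stand on another list too, 4 of 15 rose and 0 fell (median 0.66). Btla, an inhibitory receptor, rose by 1.29 (SE 0.25). Dpp4, the surface peptidase CD26, rose by 1.66 and did not pass without DNFB replicate 1 or 3 or steady-state replicate 1 (1.51 to 1.67). Kmo did not pass without DNFB replicate 3 or steady-state replicate 1 (1.50 and 1.31), nor Runx3 without steady-state replicate 3 (0.75). Without DNFB replicate 3, the number of the list that rose was 3. In the CD11b+ DC list 1 of 15 rose and 3 fell, with a median of -0.40. Ltb, which encodes lymphotoxin beta, rose by 1.80 (SE 0.26). Ccl17, a chemokine for CCR4 that skin DC make at high levels, had 10.85, 10.79 and 10.68 in DNFB DC, against 12.38, 12.23 and 12.11 in steady-state DC (-1.47, SE 0.30, adjusted p = 0.0028). Irf4, the transcription factor needed for migration of CD11b+ DC, had 7.69, 7.56 and 7.89 in DNFB DC and 8.70, 8.60 and 9.01 in steady-state DC (-1.06, SE 0.29, adjusted p = 0.028). The call of Irf4 was lost without DNFB replicate 1 or 2 or steady-state replicate 1 or 3 (-1.10 to -0.94). Irf8, a factor of the other conventional DC branch and of monocytes, had 7.28, 7.65 and 7.31 in DNFB DC and 5.84, 6.44 and 5.99 in steady-state DC (2.50-fold, 1.32, SE 0.24). In the list of cDC1 and Langerhans cell markers, DC types other than the sorted one, 3 of 14 rose (Irf8, Itgae and Clec9a), Naaa fell, and the median was 0.06. The list mean was 5.37 to 5.44 on the DNFB arrays and 5.36 to 5.45 on the steady-state arrays. Xcr1, which defines cDC1, had low signal in both groups, with 3.58, 3.85 and 3.68 in DNFB DC and 3.39, 3.97 and 3.45 in steady-state DC (0.10, SE 0.20). Itgae, which encodes CD103, rose by 0.74 and did not pass without DNFB replicate 3 or steady-state replicate 3 (0.53 and 0.69). Clec9a rose by 0.70, with low signal in both groups, and did not pass without DNFB replicate 1 or 3 or steady-state replicate 1 or 2 (0.63 to 0.68). Naaa fell by 1.02 and did not pass in any of the 6 fits without 1 array (-1.10 to -0.93). The number that rose was 1 without DNFB replicate 3. Mgl2 and Clec10a, neighbouring CD301 lectin genes, had differences of opposite sign that did not pass (-1.10, SE 0.35, and 1.15, SE 0.40).

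Macrophage genes were lower after DNFB. In the macrophage core list 7 of 22 fell and 1 rose, with a median of -0.80, and in the list of perivascular-type resident macrophages 4 of 15 fell and 0 rose, with a median of -0.75. The chains of complement C1q were among them. C1qc had 7.30, 7.75 and 7.41 in DNFB DC, against 10.09, 10.11 and 10.40 in steady-state DC (6.58-fold lower, -2.72, SE 0.42, adjusted p = 9.7e-05). C1qb and C1qa fell by 2.12 and 1.65, and C1qa did not pass without DNFB replicate 1 or steady-state replicate 3 (-1.36 and -1.38). Pf4, a platelet chemokine that resident macrophages also express, had 6.82, 7.28 and 7.52 in DNFB DC and 9.73, 9.51 and 9.95 in steady-state DC (-2.52, SE 0.46). Adgre1, which encodes a surface antigen of mature macrophages, fell by 1.39 (SE 0.26) and the lipoprotein gene Apoe by 1.34 (SE 0.22). Folr2, Lyve1 and Mrc1 did not pass (-0.44, -0.75 and -0.72). The mean of the macrophage core list lay between 6.98 and 7.37 on the DNFB arrays and between 7.63 and 7.94 on the steady-state arrays. At steady state C1qc and Cd163 were already well above their levels in node migDC, with 10.20 and 10.14 in dermal DC and 5.28 and 4.18 in node migDC. Macrophage RNA in the sort and macrophage genes of the DC were not told apart, and their part in the result was not tested.

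Monocyte genes split. Of 14 members 4 rose (Plac8, Ifitm6, Vcan and Gsr) and 2 fell (F13a1 and Fn1), with a median of 0.53. Vcan, a matrix proteoglycan that classical monocytes express, had 6.59, 6.35 and 7.12 in DNFB DC, against 4.39, 4.37 and 4.65 in steady-state DC (4.65-fold, 2.22, SE 0.32). Fn1, fibronectin, fell by 1.85, and F13a1 by 1.65, which did not pass without DNFB replicate 1 (-1.33). Ccr2, the receptor that brings monocytes into tissue, had overlapping arrays (10.12 ± 0.21 in DNFB DC and 10.32 ± 0.08 in steady-state DC). Plac8 averaged 10.28 in DNFB DC, below the 11.25 of P2 cells after DNFB and the 12.04 of blood Ly6C monocytes. The mean of the list lay between 7.18 and 7.46 on the DNFB arrays and between 6.40 and 6.83 on the steady-state arrays, and the part of monocyte-derived cells in the other rises was not tested.

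**Figure D3:**
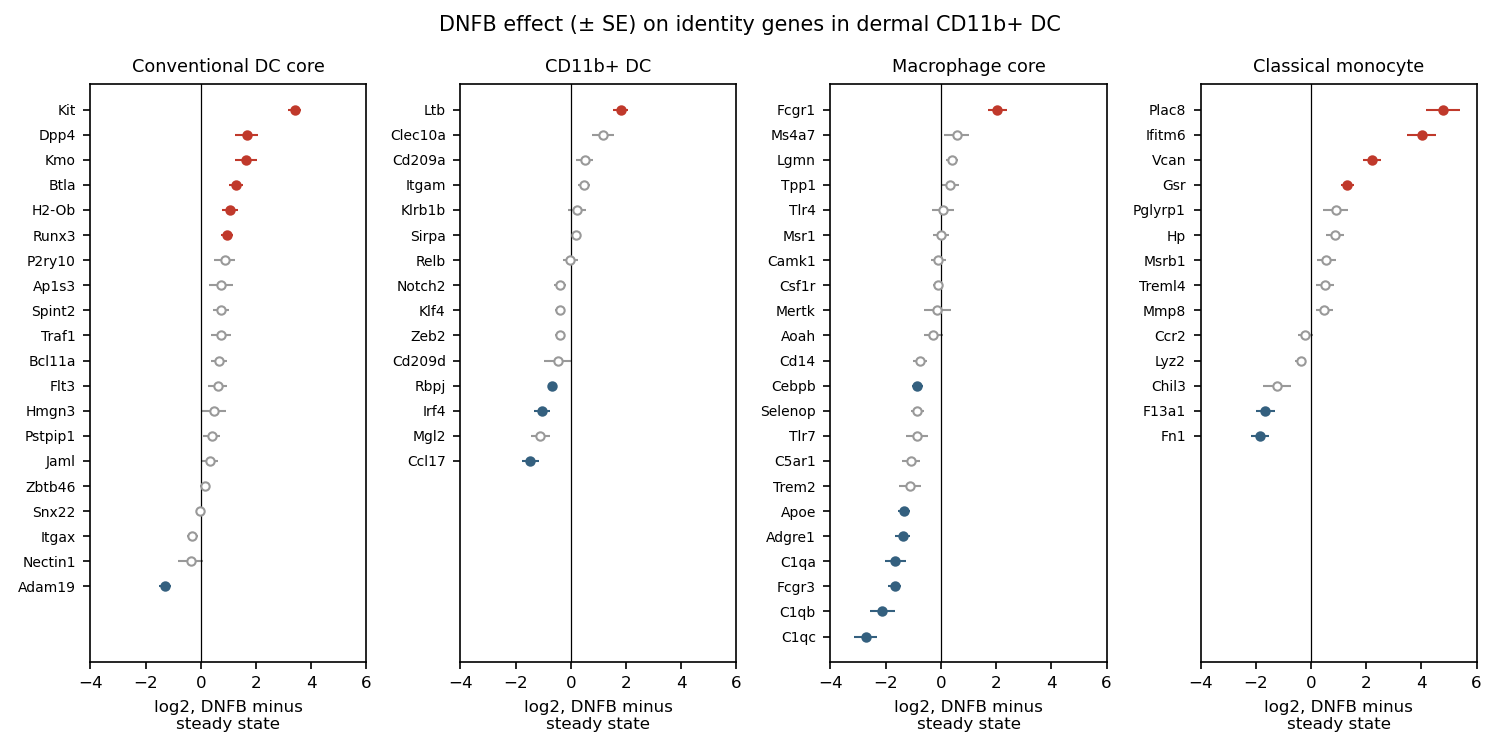
Log2 difference, DNFB minus steady state, with its SE for the members of 4 identity lists in dermal CD11b+ DC (n = 3 arrays in each group); filled red points rose, filled blue points fell and open grey points did not pass. In the macrophage panel Fcgr1 is the 1 filled red point, and the monocyte panel has Plac8 at the far right and Fn1 at the far left.

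Genes of alternative activation did not move as a block. Of 20 members 2 rose and 4 fell. Alox15, the lipoxygenase that macrophages make under interleukin-4, had 4.86, 4.94 and 6.28 in DNFB DC, against 7.77, 7.94 and 8.22 in steady-state DC (-2.62, SE 0.37). Tgm2, transglutaminase, which interleukin-4 also induces, moved the other way, with 8.27, 7.80 and 8.65 in DNFB DC and 6.50, 5.63 and 6.06 in steady-state DC (4.51-fold, 2.17, SE 0.31). Retnla, a marker of the same state, did not pass (-1.37, SE 0.45, adjusted p = 0.094).

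Secreted mediators were more often lower than higher. Of 29 chemokine genes 8 fell (27.6%) and 0 rose, with a median of -0.24. Ccl2, which attracts monocytes, had 8.72, 8.78 and 8.91 in DNFB DC, against 10.54, 10.79 and 10.87 in steady-state DC (3.81-fold lower, -1.93, SE 0.33, adjusted p = 0.00035). Cxcl1, which attracts neutrophils, fell by 1.56 (SE 0.27). Ccl6 and Ccl9 fell by 1.14 and 0.77, and Ccl7, a second monocyte attractant, by 1.91. Ccl7 did not pass without DNFB replicate 1 or steady-state replicate 3 (-1.66 in each). Among 27 cytokines and mediators 3 rose and 3 fell. Il6 had 6.88, 6.57 and 6.52 in DNFB DC and 8.73, 8.96 and 8.24 in steady-state DC (-1.99, SE 0.46), and Il1a fell by 1.64 (SE 0.37). Vegfa, the vascular growth factor, had 9.52, 9.06 and 9.80 in DNFB DC and 7.85, 7.50 and 7.56 in steady-state DC (3.54-fold, 1.82, SE 0.25), while its receptor Flt1 was among the largest falls. Osm, a cytokine of the interleukin-6 family, rose by 1.89 (SE 0.38). Il12b and Il23a, which steer T cells, did not pass (-0.19, SE 0.43, and -0.02, SE 0.22), and Il23a was close to low signal.

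Receptor genes changed more often upward. Of 24 chemokine and migration receptors 6 rose and 0 fell, and Ccr1 was the one whose call held in each fit without 1 array. Ccr1, a receptor for inflammatory CC chemokines, had 7.69, 6.30 and 7.09 in DNFB DC, against 3.94, 4.56 and 4.29 in steady-state DC (6.80-fold, 2.76, SE 0.36). The number that rose was 1 without DNFB replicate 1 or without steady-state replicate 1 or 3, 2 without DNFB replicate 2 or 3, and 6 without steady-state replicate 2. Of 31 cytokine and growth factor receptors 4 rose (Il21r, Il2ra, Il1r2 and Il4ra) and 1 fell (Il18r1). Il1r2, the decoy receptor of interleukin-1, had 11.45, 11.55 and 11.63 in DNFB DC and 9.99, 10.26 and 10.19 in steady-state DC (2.64-fold, 1.40, SE 0.24). Il4ra, a chain of the interleukin-4 receptor, rose by 0.64 and did not pass without DNFB replicate 3 (0.50). Il18r1 fell by 1.48 and did not pass without DNFB replicate 2 or steady-state replicate 3 (-1.21 and -1.12).

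Lectin and Fc receptor genes were rearranged. Clec4n, which encodes the fungal pattern receptor dectin-2, had 9.82, 9.44 and 10.01 in DNFB DC, against 5.96, 7.26 and 6.44 in steady-state DC (9.22-fold, 3.20, SE 0.44). Cd209b, a relative of DC-SIGN that resident macrophages express, had 5.06, 4.87 and 5.37 in DNFB DC and 7.51, 7.77 and 8.23 in steady-state DC (-2.74, SE 0.55). Of 25 C-type lectin and natural killer (NK)-type receptors 4 rose and 2 fell. Klrd1, the CD94 partner of NKG2 receptors, was already high, with 11.49, 10.80 and 11.11 in DNFB DC and 8.78, 9.48 and 8.98 in steady-state DC (4.15-fold, 2.05, SE 0.40). Its mean after DNFB was above that of any other group of the series, of which dermal DC at steady state was next (9.08) and P2 cells followed (8.43 after DNFB and 8.22 at steady state). Among 8 Fc receptors Fcgr1 rose, and Fcgr3 and Fcrls fell. Fcgr3, the low-affinity activating IgG receptor, had 8.53, 8.52 and 8.84 in DNFB DC, against 10.23, 10.31 and 10.41 in steady-state DC (3.21-fold lower, -1.68, SE 0.24). The high-affinity and the low-affinity receptor gene therefore differed in direction on the same arrays. Among 22 pattern recognition receptors 2 rose and 0 fell, and of 16 NF-kB targets 1 rose (Birc2) and 2 fell (Icam1 and Sod2). Icam1, the adhesion ligand for T cells, fell by 1.17 (SE 0.18). Birc2 and Sod2 each did not pass without DNFB replicate 1 or 2 or steady-state replicate 2 or 3 (0.83 to 0.99 and -0.87 to -0.81).

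Of 19 proteases of the matrix and their inhibitors 7 fell, 1 rose and 11 did not pass, with a median of -0.33. Mmp14, a membrane-bound collagenase, had 8.12, 7.91 and 8.42 in DNFB DC, against 5.12, 4.89 and 5.37 in steady-state DC (8.12-fold, 3.02, SE 0.38). Timp2, an inhibitor that also serves to activate another metalloproteinase at the cell surface with Mmp14, had 6.98, 7.09 and 7.66 in DNFB DC and 9.81, 9.20 and 9.90 in steady-state DC (-2.40, SE 0.48). Of the urokinase system, the protease gene Plau fell by 1.60, its receptor Plaur by 0.81 and its inhibitor Serpinb2 by 2.59.

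Cell cycle genes were lower after DNFB, with 11 of 32 falling (34.4%), 0 rising and a median of -0.76. Mki67, the standard marker of cycling cells, had 7.26, 7.37 and 7.18 in DNFB DC, against 8.28, 8.70 and 8.62 in steady-state DC (-1.26, SE 0.25, adjusted p = 0.0016). Cdca8, a subunit of the complex that corrects chromosome attachment, fell by 1.91 (SE 0.37), and Cdk1, the mitotic kinase, by 1.14 (SE 0.22). The number that fell depended on single arrays. It was 4 without DNFB replicate 1, 5 without DNFB replicate 2 or without steady-state replicate 1 or 2, 6 without DNFB replicate 3, and 12 without steady-state replicate 3. Mki67, Cdk1 and Cdca8 passed in each of these fits. With covariates for the keratinocyte and fibroblast means 5 fell (median -0.75), and with array weights 17 (median -0.80). Of the replication genes, Mcm3 fell by 0.80 and did not pass without DNFB replicate 2 or 3 or without any 1 of the steady-state arrays (-0.86 to -0.65), while Mcm5 and Pcna did not pass (0.11 and -0.03).

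Metabolic and housekeeping lists differed in the share of members that passed, which was 4.16% over all genes. It was 13.6% for glycolysis and hypoxia, 12.5% for lysosome, 7.69% for respiratory chain and 4.76% for ribosomal protein genes. Among the lists of this paragraph it was highest for the immediate early genes. Of 22 genes of glycolysis and hypoxia 3 rose (Vegfa, Ldha and Hif1a), and Ldha, lactate dehydrogenase, had 10.27, 10.06 and 10.49 in DNFB DC and 9.34, 9.32 and 9.33 in steady-state DC (0.94, SE 0.17). Hif1a did not pass without DNFB replicate 3 or steady-state replicate 2 (0.72 and 0.79). Of 24 lysosome genes 3 fell, among them Npc2, the cholesterol carrier (-0.96, SE 0.11). Of 17 cholesterol synthesis genes and 14 alarmin genes 0 passed in limma's test, and their medians were 0.14 and 0.02. Of 21 ribosomal protein genes 1 rose and 0 fell, and of 26 respiratory chain genes 1 rose and 1 fell. Without DNFB replicate 1 or steady-state replicate 2 the respiratory chain counts were 0 and 0, and in the fits without DNFB replicate 2 or 3 or steady-state replicate 1 they were 1 and 0. Of 25 immediate early genes, which tissue digestion can induce, 1 rose and 3 fell, with a median of -0.13. In the fits without 1 array, the number that rose was 0 except without steady-state replicate 1, and 2 or 3 fell.

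Markers of other cells moved in part with the treatment. The T cell list had 4 of 11 members that rose (Cd3d, Lat, Cd3g and Cd5) and 1 that fell (Cd2), and its mean was 5.35 to 5.70 on the DNFB arrays and 4.86 to 5.18 on the steady-state arrays. Cd3d, a chain of the T cell receptor complex, had 5.61, 4.30 and 5.66 in DNFB DC, against low signal of 3.64, 3.06 and 3.04 in steady-state DC (3.84-fold, 1.94, SE 0.28). Cd3g rose by 1.24 and did not pass without DNFB replicate 1 (0.96). Cd3e did not pass, with 6.25, 6.41 and 6.57 in DNFB DC and 5.34, 5.21 and 6.64 in steady-state DC. Of 20 genes of activated and regulatory T cells, gathered after their values were seen, 8 rose and 0 fell. Over all genes 2.11% rose and 2.06% fell. Of the 8 calls, those of Ccr8 and Cd6 were lost in some fits without 1 array. The 8 include Foxp3, the factor of regulatory T cells (0.83, SE 0.15). Foxp3 had 5.54, 5.20 and 5.37 in DNFB DC and 4.55, 4.58 and 4.50 in steady-state DC. Il2ra, Ctla4, Icos and Tnfrsf9, which activated T cells express and DC can express as well, rose by 2.51, 2.53, 1.90 and 1.66. Cd3d averaged 5.19 in DNFB DC and 2.98 to 4.11 in the other 12 groups. The part of T cell RNA in the rises of Il2ra, Il21r, Ctla4, Icos and the NK-type receptors was not tested.

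Keratinocyte genes had the opposite sign. Their list had 2 of 15 members that fell (Krt14 and Krt15) and 0 that rose, a median of -1.06, and a mean of 5.18 to 6.01 on the DNFB arrays against 6.51 to 7.09 on the steady-state arrays. Krt15 fell by 1.81, and Krt14 had 6.98, 7.58 and 6.42 in DNFB DC and 8.64, 8.73 and 8.08 in steady-state DC (-1.49, SE 0.42). Krt14 did not pass without DNFB replicate 1 or 3 or steady-state replicate 1 or 2 (-1.49 to -1.21), and in those fits 1 member of the list fell. Of 13 fibroblast genes Sparc fell by 2.16 and Dcn by 1.88, 11 did not pass, and the median was -0.06, with a list mean of 4.91 to 5.46 on the DNFB arrays against 5.37 to 5.68 on the steady-state arrays. Dcn did not pass without DNFB replicate 1 or 2 or steady-state replicate 1 or 3 (-1.75 to -1.44). In the cartilage list Cytl1 was the 1 of 15 that fell, and Col2a1 and Acan, which define cartilage, were at 5.55 and 3.55 in DNFB DC and 5.69 and 3.78 in steady-state DC. Cytl1 averaged 8.16 to 9.72 in the 6 dermal groups at steady state, 4.36 to 5.00 in the 3 dermal groups after DNFB, and 4.57 in blood monocytes. With the means of the keratinocyte and fibroblast lists as covariates, 753 genes changed, 587 of them among the 830. Cpa3, a mast cell protease, was at 7.01 on DNFB replicate 3 and at 3.46 and 3.16 on the other 2 DNFB arrays, against 4.10, 3.39 and 3.53 in steady-state DC. Of the mast cell list 1 of 11 rose, which was Kit, and Kit was high on all 3 DNFB arrays. Of the endothelial list 0 of 12 passed in limma's test. In the NK cell list 2 of 12 rose, in the B cell list 1 of 9 and in the neutrophil list 1 of 13. In the plasmacytoid DC list 1 of 8 rose and 1 fell, and in the erythroid and platelet list 1 of 6 fell. The shares called in these short lists ran from 0.0% to 25.0%, against 4.16% of all genes. Ly6g and Mpo of neutrophils lay at 2.92 and 4.54 in DNFB DC and 2.84 and 4.73 in steady-state DC.

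**Figure D4:**
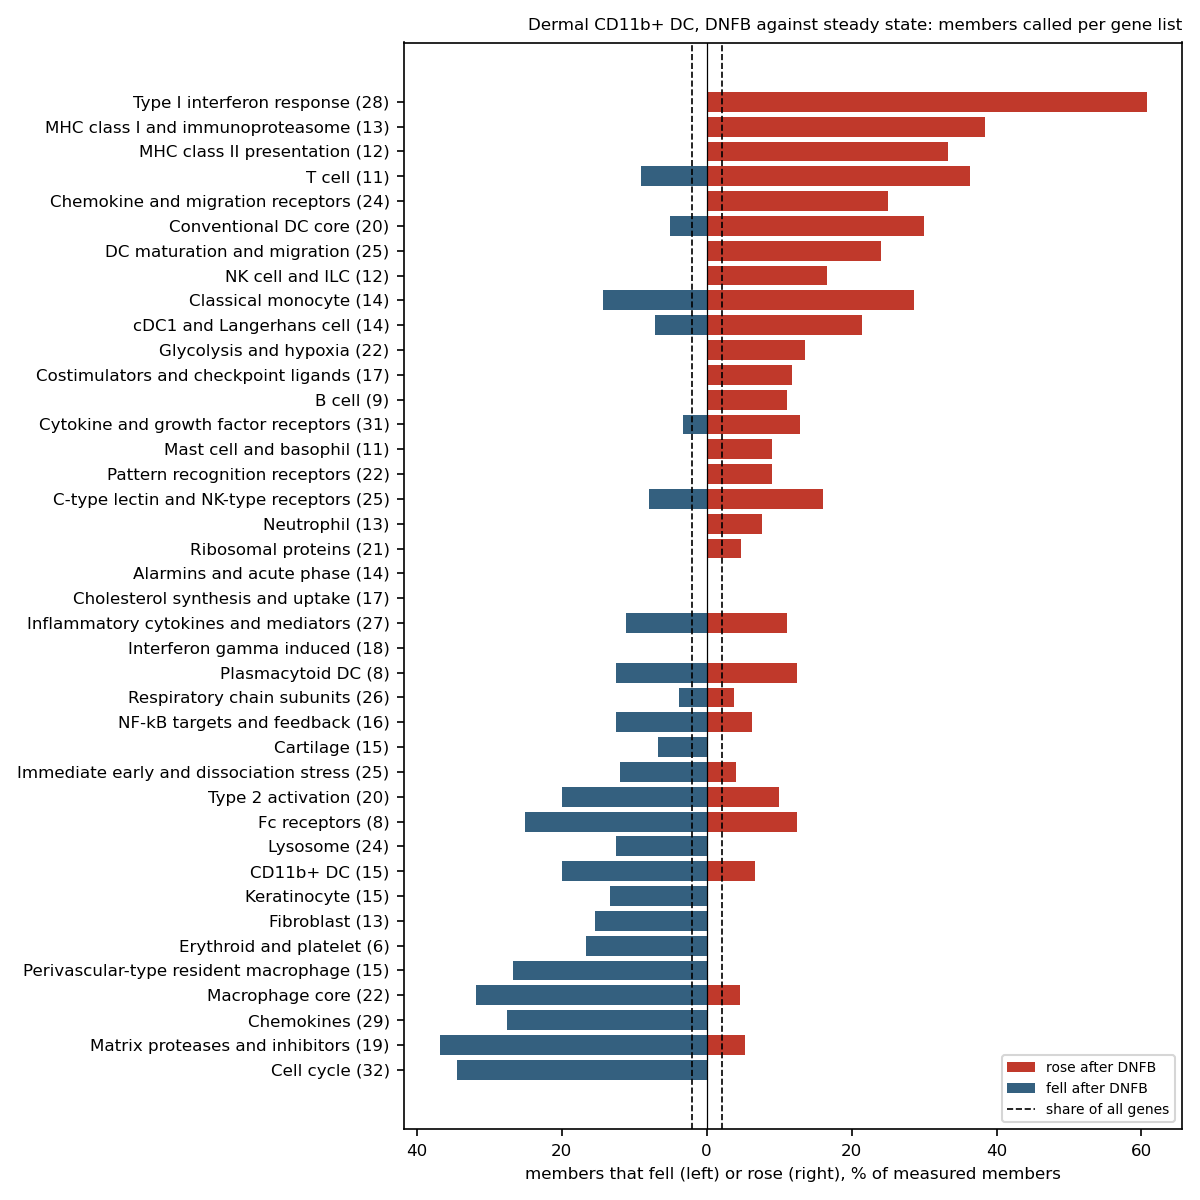
Share of the measured members of each gene list (number in brackets) that rose (red, to the right) or fell (blue, to the left) after DNFB in dermal CD11b+ DC; dashed lines give the share of all 19937 genes, 2.11% for rises and 2.06% for falls. The type I interferon list has the longest red bar, with 17 of 28, and the protease, cell cycle and macrophage core lists the longest blue bars.

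The response of dermal DC was set against that of the other populations, whose effects rest on other arrays, with the spread between replicates estimated over all 38 arrays. Several populations share the numbers in their source names, so their cells may come from the same pools of mice. Shared changes are therefore not shown to be independent. DNFB changed 402 genes in P2 cells (2.02% of genes tested), with 203 rises (1.02%) and 199 falls (0.998%). It changed 268 in node migDC (1.34%), with 180 rises (0.903%) and 88 falls (0.441%), and 127 in P1 cells (0.637%), with 112 rises (0.562%) and 15 falls (0.0752%). Of the 420 genes that rose in dermal DC, 100 rose in P2 cells too, which is 23.8% of the DC rises and 49.3% of the P2 rises. Node migDC shared 38 (9.05% of the DC rises and 21.1% of their own) and P1 cells 34 (8.10% and 30.4%). Of the 410 falls, 87 fell in P2 cells (21.2% and 43.7%), 25 in node migDC (6.10% and 28.4%) and 5 in P1 cells (1.22% and 33.3%). Shared rises included Ifitm1, Ifit3, Oasl2, Irf7, Stat4, Il21r and Cd72 in P2 cells, and Cd274, Mmp14, Btla and Ltb in node migDC. Of the type I interferon genes 16 of 28 rose in P2 cells, 3 in node migDC and 4 in P1 cells. P1 cells had 2 arrays after DNFB, and a smaller count there is not a test of a smaller effect.

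The difference of the DNFB effects was therefore tested gene by gene. Between dermal DC and P2 cells it passed for 50 genes (0.251%), of which 26 were higher (0.13%) and 24 lower (0.12%) in dermal DC. Of the 50, 52.0% were higher, and of 41 genes that passed with array medians centred 39.0% were. The DC effect was the higher one for Cyp7b1 (3.88 in dermal DC and -0.03 in P2 cells, difference 3.91, SE 0.41, adjusted p = 8.4e-07) and Kit (3.40 and 0.14, difference 3.26). For C1qc it was the lower one (-2.72 in dermal DC and 0.29 in P2 cells, difference -3.00), and likewise for Pf4 (-2.52 and 0.84, difference -3.36). The complement and Pf4 falls of dermal DC thus had no counterpart of the same sign in P2 cells. S100a9, an alarmin of neutrophils and inflamed monocytes, rose in P2 cells (4.32) and did not pass in dermal DC (0.52), and the difference passed (-3.81). These 3 differences did not pass in some fits without 1 array. For Pf4 this was so without DC DNFB replicate 1, P2 DNFB replicate 2 or P2 steady-state replicate 3 (-3.17 to -2.92). For C1qc it was so without DC DNFB replicate 1 or 3, DC steady-state replicate 3, P2 DNFB replicate 2 or P2 steady-state replicate 3 (-2.96 to -2.55). For S100a9 it was so in 8 of the 12 fits, all but those without DNFB replicate 2 or steady-state replicate 2 of DC or replicate 1 of either P2 group (-3.87 to -3.56). The count of 50 was 24 without DC DNFB replicate 1, 29 without P2 DNFB replicate 2, 32 without steady-state replicate 3 of either population, and 33 without P2 steady-state replicate 2.

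Between dermal and node DC the difference passed for 261 genes (1.31%), 99 higher (0.497%) and 162 lower (0.813%) in dermal DC, and for 170 without DC DNFB replicate 1. Tnfsf4 averaged 9.67 ± 0.29 in dermal DC after DNFB, and 6.02 or less in the other 12 groups of the series. Its effect was 4.59 in dermal DC, 1.57 in P2 cells, 0.15 in node migDC and -0.16 in P1 cells, and the differences from each of these 3 passed (3.02, 4.44 and 4.76). The difference from P2 cells did not pass without DC DNFB replicate 1, DC steady-state replicate 1 or 3, P2 DNFB replicate 2 or P2 steady-state replicate 2 or 3 (2.55 to 2.95). Plac8, Cd72, Ifitm6, Gm9733 and I730030J21Rik were also raised more in dermal DC than in node migDC. Fscn1 rose in dermal DC to 9.38, against 6.93 at steady state, and was higher still in node migDC, at 12.62 after DNFB and 12.46 at steady state. Cd80 and Cd86 behaved in the opposite way. They rose in node migDC by 2.25 and 2.17 and did not pass in dermal DC, and the differences were -1.66 and -2.03 (adjusted p = 0.024 and 0.0024). Both genes were taken up here after their values were seen. The difference of Cd80 did not pass without DC DNFB replicate 2 or 3, DC steady-state replicate 1 or 3, node DNFB replicate 1 or 3 or node steady-state replicate 2 (-1.62 to -1.54). Cxcl9 rose in node migDC (2.98), and the difference was -4.45. Against P1 cells the difference passed for 198 genes (0.993%), 77 higher (0.386%) and 121 lower (0.607%) in dermal DC, with Tnfsf4, Plac8 and Cd72 at one end and Spink2, Saa3 and Pf4 at the other. Of these 38.9% were higher, and of 185 with array medians centred 28.1%. The count was 123 without DC DNFB replicate 1 and 86 without P1 DNFB replicate 1, and in the second of these fits Plac8 did not pass (4.58).

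**Figure D5:**
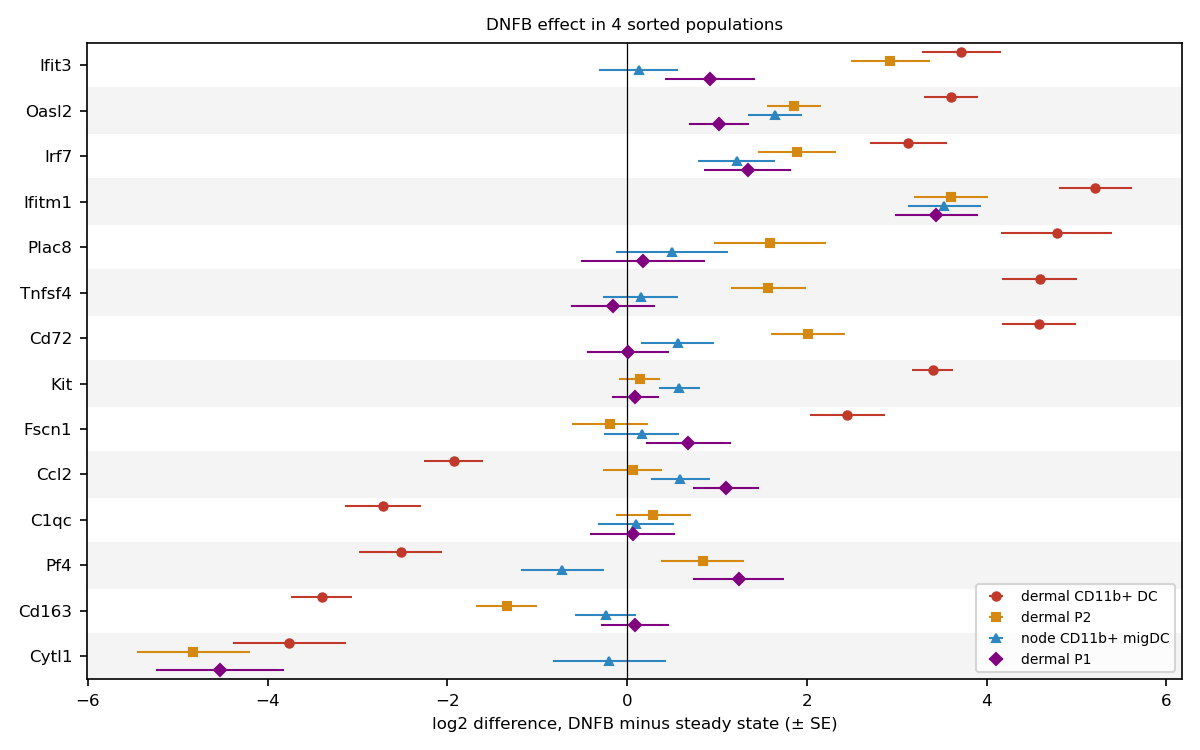
Log2 difference, DNFB minus steady state, with its SE for 14 genes in dermal CD11b+ DC, dermal P2 cells, node CD11b+ migDC (n = 3 arrays in each group) and dermal P1 cells (n = 2 after DNFB and 3 at steady state). Ifitm1 is to the right in all 4 populations, Cytl1 to the left in the 3 dermal ones, and Kit lies to the right in dermal DC (3.40) and below 1 in the other 3. For Fscn1 the differences from the other populations did not pass.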

How the data were processed

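The members and the gene lists were chosen with earlier results of these data known. Of 735 different genes on the 41 lists, 66 stood on more than 1 list, so the counts of different lists share genes. Expression was measured on 38 arrays of 13 groups. The values the authors deposited are log2 intensities, and the submitters' processing notes name RMA and affy, with versions not given in the sources used here. Their 34760 probe sets were paired with gene symbols through the platform annotation, which gave 1 symbol for 21640, several for 1321 and none for 11799. Symbols were updated through RefSeq for 21553, and probe sets with several symbols were left out. For each of 19937 genes the probe set with the highest mean over all arrays was used (954 genes had several).

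A mean for each group was fitted with limma 3.58.1 in R 4.3.3 (lmFit and eBayes, 25 residual degrees of freedom), and p-values were adjusted by Benjamini-Hochberg over all genes. An exact two-sided permutation test of 3 against 3 arrays cannot go below 0.10, so single genes were not tested that way. Replicates are pools of mice that the labels call independent. The replicate numbers in the titles were treated as names, since the deviations of DNFB and steady-state DC arrays of the same number correlated at -0.04, 0.01 and 0.02. The numbers in the source names, which differ from these, were fitted as a random block. On simulated data with 100 genes changed 2-fold and 100 changed 4-fold, the dermal DC comparison of 19937 genes found 58 and 95, none in the wrong direction, and called 4 unchanged genes. The number of arrays limits the precision.

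The text names the 15 largest rises and 15 largest falls among called genes without overlap and with a group mean of at least 4.02, up to 6 members per list by adjusted p, the sort markers and DC genes, the largest 6 of each sign in each difference of effects, and list members described by role. Alternatives changed the normalisation, filter, probe set rule, variance model, arrays, blocks and covariates.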

Additional observations from a re-analysis of the deposited data

Results flagged for a closer look

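The DNFB effect of dermal CD11b+ DC differed from that of another population, by limma's test of the difference itself, for the genes below, and no explanation was tested. Values are log2 differences of effects, dermal DC minus the other population.

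Against P2 cells the differences above 0 were I730030J21Rik at 4.24, Cyp7b1 at 3.91, Prnp at 3.44, Kit at 3.26, and Ffar2 and Tnfsf4 at 3.02 each. Prnp, the prion protein gene, had 7.98, 7.46 and 8.26 in DNFB DC, against 4.72, 5.51 and 4.98 in steady-state DC. Those below 0 were S100a9 at -3.81, Pf4 at -3.36, C1qc at -3.00, Slfn4 at -2.75, Saa3 at -2.60 and C1qa at -2.55. For S100a9, Slfn4 and Saa3, the effect in P2 cells was 4.32, 3.22 and 2.90, and in dermal DC 0.52, 0.47 and 0.29, which did not pass. The calls of I730030J21Rik, Cyp7b1, Kit and Ffar2 held in each fit without 1 array, and those of the other 8 were lost in at least 1 such fit.

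Against node migDC the differences above 0 were I730030J21Rik at 5.85, Tnfsf4 at 4.44, Plac8 at 4.28, Ifitm6 at 4.16, Cd72 at 4.02 and Gm9733 at 3.87. Those below 0 were Cxcl9 at -4.45, Cytl1 at -3.56, Cd302 at -3.42, Atp1b1 at -3.39, Spink2 at -3.35, Dll4 at -3.24, Cd86 at -2.03 and Cd80 at -1.66. Cd302, Atp1b1 and the Notch ligand gene Dll4 were higher after DNFB in node migDC by 2.60, 3.55 and 3.62. Of the 12 fits without 1 array, Cytl1 did not pass in any but that without DC steady-state replicate 2 (-3.76 to -3.19 in the others), and Cd80 did not pass in 7 (-1.62 to -1.54).

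Against P1 cells, with 2 arrays after DNFB, the differences above 0 were Tnfsf4 at 4.76, Plac8 at 4.60, Cd72 at 4.57, I730030J21Rik at 4.52, Cst7 at 4.17 and 6330407A03Rik at 4.14. Those below 0 were Spink2 at -4.43, Saa3 at -4.08, Pf4 at -3.76, C3ar1 at -3.60, Cd163 at -3.49 and Slc27a3 at -3.40. Plac8 and Cst7 lost the call without P1 DNFB replicate 1, and 6330407A03Rik without that array, DC steady-state replicate 1 or P1 steady-state replicate 3.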

How the results depend on the processing

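Of 201 called genes examined in dermal DC, none reversed its direction under an alternative run. Of these 201, 123 kept the call in each alternative other than the 2-fold rule, 78 lost it in at least 1, and 65 lost it when 1 array was left out. The 830 genes became 1373 with array weights, 490 at 2-fold or more, and 506 to 660 without 1 array. The 50 genes that differed from P2 cells became 83 with array weights, 22 with only the groups compared in the fit, and 24 to 72 without 1 array. The 261 that differed from node migDC became 771 and 419 under the same settings, and 170 to 249 without 1 array. The 198 that differed from P1 cells became 309 and 126, 304 with the keratinocyte and fibroblast means as covariates, and 86 to 238 without 1 array. With the replicate number as a block, the pairing of which the data did not show, the counts were 829, 52, 253 and 197. With the number in the source name, which groups of several populations share, as a random block (correlation 0.00329), they were 835, 62, 267 and 202. The cause of these changes was not tested. The call of Cd80 against node migDC was lost with the mean of all probe sets (-1.29). Probe sets of Rbpj and Top2a differed, with -0.67 against 0.04 and -0.89 against -0.11. The second probe set of each had low signal in both groups. For Rpl5, the ribosomal protein gene that rose, the probe set used gave 0.44. The others gave 0.02, 0.17 and 0.14, the last with low signal. The calls of Rbpj, Top2a and Rpl5 were lost with the mean of all probe sets. The steady-state mean was low signal in 54 rises and the DNFB mean in 18 falls, where the fold is understated if the probe set is near its floor. Vehicle and chip batch could not be told apart from DNFB.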

Other observations

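The groups of genes in these paragraphs were picked after their values were seen, and their counts support nothing further. In dermal DC 2.11% of all genes rose and 2.06% fell. Killer cell lectin-like receptor genes, known from NK cells and in part expressed by DC, had 8 of 23 measured members that rose and 1 that fell after DNFB in dermal DC, with a median of 0.22. Besides Klrd1 and Klri2, Klrb1f rose by 1.67, Klrc1 by 1.45, Klra17 by 1.32 and Klrg1 by 1.13, while Klrb1a fell by 2.00. Klri1 and Klrc2 rose as well, and did not pass without DNFB replicate 1 or 3. Klri1 also did not pass without steady-state replicate 1 or 3. In P2 cells and in node migDC 0 of the 23 passed in limma's test, near the shares of 2.02% and 1.34% of all genes. In P1 cells 1 rose.

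Histone genes were lower, with 12 of 41 falling and 0 rising (median -0.42), among them H2bc14 by 2.03, H4c4 by 1.88 and H4c14 by 1.69. Of the 12 calls, 6 were lost without DNFB replicate 3, 6 without steady-state replicate 2, and 5 held in each fit without 1 array, these 3 among them. In P2 cells 4 of the 41 fell. Of 13 clock genes 2 fell, and Nr1d1, which encodes the clock repressor REV-ERB alpha, had 7.98, 7.87 and 8.07 in DNFB DC, against 10.09, 10.09 and 10.42 in steady-state DC (-2.23, SE 0.35). The other, Dbp, did not pass without DNFB replicate 1 or steady-state replicate 2 (-0.54 and -0.68). The hour of harvest was not among the labels used here.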
